A study of Homo sapiens with 12 samples.

Results

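The 38 genes described here encode enzymes that build, desaturate, elongate and oxidize fatty acids, 16 of synthesis and 22 of oxidation, picked by name from the 34643 gene symbols of an RNA-seq table of LNCaP cells. LNCaP is an androgen-sensitive human prostate cancer cell line. All 12 libraries came from LNCaP cells transduced with a lentiviral pLKO.1-puro vector that expresses a short hairpin RNA from the U6 promoter, kept under puromycin for 1 week and used about 17 days after transduction. The hairpin was a scrambled control (shScramble) or was directed at TMEFF2 (shTMEFF2), a transmembrane protein of prostate cells. Cells were held for 24 h in medium with charcoal-stripped serum, which lacks most steroids, and then received ethanol vehicle (DHT-) or 10 nM of the androgen dihydrotestosterone (DHT+) for 24 h. The 4 groups hold 3 libraries each, from 3 separate treatments and RNA extractions that drew on only 2 transductions, and which libraries share a transduction is not given. P-values therefore measure the spread between these treatments of 1 cell line and not between independently made lines.

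Fatty acid synthesis starts in the cytosol, where ATP citrate lyase makes acetyl-CoA from citrate, acetyl-CoA carboxylase turns it into malonyl-CoA, and fatty acid synthase joins these units with NADPH into palmitate. Desaturases and elongases of the endoplasmic reticulum then shape palmitate and dietary fatty acids into the unsaturated and long-chain forms of membranes and stored fat. Oxidation runs the other way: the carnitine shuttle carries fatty acids into mitochondria, a repeating set of reactions removes acetyl units there, and peroxisomes shorten very long and branched chains. Androgens are known to raise lipid synthesis in prostate cancer cells, largely through the SREBP transcription factors, and prostate cancers are known for high levels of AMACR, the enzyme that admits branched-chain fatty acids to oxidation.

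Levels are TMM-normalized CPM, counts scaled to a common library size, which rank libraries within a gene and not genes against each other. A gene passed the test at an adjusted p of at most 0.05 in edgeR's quasi-likelihood test, adjusted by Benjamini-Hochberg over the 15419 genes tested, and "rose", "fell", "higher in" and "lower in" are used of such genes. All 38 members passed the filter on low counts. Libraries held 19450866 to 22612046 estimated counts. The other genes of these libraries serve here as a background. TMEFF2 itself stood at 77.8, 73.8 and 103 CPM in shScramble DHT- and 68.6, 39.3 and 81.7 CPM in shTMEFF2 DHT-, and at 173, 117 and 169 CPM against 142, 90.1 and 114 CPM with DHT. Its means were lower in shTMEFF2, but the groups overlapped and neither difference passed the test (log2 -0.43 ± 0.25 SE, adjusted p = 0.50 without DHT and -0.41 ± 0.25, adjusted p = 0.30 with it), so the mRNA gives little check of the hairpin. By Western blot, the paper reports appreciable silencing of TMEFF2 protein in LNCaP cells with some, though not all, of its TMEFF2 hairpins. For the silencing it also points to TMEFF2 mRNA levels of LNCaP cells with the hairpins, with and without DHT. Protein was not measured in these libraries. Groups are called by their labels throughout. The 9 LNCaP markers were present in all groups and summed to 6784 to 7033 CPM in shScramble DHT-, 13642 to 14667 CPM in shScramble DHT+, 4349 to 4858 CPM in shTMEFF2 DHT- and 5370 to 6489 CPM in shTMEFF2 DHT+. Of 13 markers of other cell types, KRT5 and FABP4 were at 0 throughout and the 13 summed to 18.6 to 43.3 CPM, most of it COL1A1 (11.9 to 30.4 CPM) and PTPRC (3.15 to 7.74 CPM). That sum was 26.5 to 27.5 CPM in shScramble DHT- and 18.6 to 21.0 CPM in shScramble DHT+, and 31.2 to 43.3 CPM and 23.1 to 27.7 CPM in shTMEFF2 without and with DHT. The part of either sum in the results was not tested. In bulk RNA, fewer cells of a kind and less RNA per cell cannot be told apart.

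Upstream regions of 4 genes are shown, from the RefSeq promoter table of GRCh38.p14. SCD, ELOVL5 and ELOVL7 are shown as synthesis genes that rose with DHT in both lines, and AMACR as the gene that differed between the lines under both treatments. Each runs 5′ to 3′ on the gene's strand and ends at the base before the transcription start. Capitals mark an E-box (CACGTG) or a CCAAT box on either strand. SCD lies at chr10:100346983-100347232 on the plus strand, ELOVL5 at chr6:53348951-53349200, ELOVL7 at chr5:60844270-60844519 and AMACR at chr5:34008051-34008300, all 3 on the minus strand.
SCD: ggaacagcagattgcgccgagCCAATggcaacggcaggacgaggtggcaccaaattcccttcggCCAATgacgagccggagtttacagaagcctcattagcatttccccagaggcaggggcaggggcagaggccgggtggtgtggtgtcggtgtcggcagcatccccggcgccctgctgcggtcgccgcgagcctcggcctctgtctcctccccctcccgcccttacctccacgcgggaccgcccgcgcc
ELOVL5: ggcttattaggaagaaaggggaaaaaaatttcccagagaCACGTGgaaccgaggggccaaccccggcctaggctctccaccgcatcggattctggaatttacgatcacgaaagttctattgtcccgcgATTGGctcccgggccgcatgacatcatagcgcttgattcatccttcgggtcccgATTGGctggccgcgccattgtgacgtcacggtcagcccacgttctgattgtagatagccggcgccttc
ELOVL7: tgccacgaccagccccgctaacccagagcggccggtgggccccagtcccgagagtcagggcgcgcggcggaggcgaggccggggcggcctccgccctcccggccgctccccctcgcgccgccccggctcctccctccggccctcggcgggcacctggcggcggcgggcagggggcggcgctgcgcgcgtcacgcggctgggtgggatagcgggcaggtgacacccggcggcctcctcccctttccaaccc
AMACR: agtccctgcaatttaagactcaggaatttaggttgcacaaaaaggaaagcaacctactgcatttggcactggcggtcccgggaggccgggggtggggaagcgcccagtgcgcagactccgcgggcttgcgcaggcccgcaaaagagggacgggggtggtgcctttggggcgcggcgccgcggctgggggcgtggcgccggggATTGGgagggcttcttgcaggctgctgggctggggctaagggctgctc

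SCD and ELOVL5 hold 2 CCAAT boxes each in these 250 bases, AMACR holds 1, and ELOVL5 also holds an E-box. Promoter windows of 300 bases (250 before the start and 50 after) matched 32 of the 38 members, some with more than 1 start, for 43 windows. FASN, HSD17B12, DECR1, DECR2, ETFDH and EHHADH had no entry. The CCAAT box was found in 12 of 20 windows of synthesis members and 5 of 23 of oxidation members, against 34.6% of all 35116 windows. The E-box was found in ELOVL5 and PECR (7.26% of all windows), and the GC box GGGCGG in 16 and 19 windows (45.0% of all). The sterol regulatory element core TCACNCCAC (1.13% of all windows) and the androgen half-sites GNACA and TGTNC 3 bases apart (0.390%) were in none of the 43. All motifs were sought on both strands, and these counts describe letters in a short window and not factor binding.

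DHT raised most of the synthesis genes in shScramble cells. Of the 16, 12 rose and 0 fell, where 14.4% of all tested genes rose and 12.6% fell. Of the 12, 10 rose by at least 1.5-fold. No share over all genes was counted at the 1.5-fold limit, here or in the later comparisons, so counts at that limit have no background. Their median log2 fold change was 0.84, against -0.01 over all genes. Their summed level went from 4216 to 4702 CPM in the DHT- libraries to 9236 to 9939 CPM in the DHT+ libraries. With library size in place of TMM, 11 rose and 2 fell. In that setting 1673 of 15419 genes rose and 2698 fell, with a median of -0.08 over all genes.

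ACLY, which supplies cytosolic acetyl-CoA, stood at 477, 511 and 551 CPM without DHT and at 927, 869 and 927 CPM with it. This was a 1.77-fold rise with no overlap (log2 0.82 ± 0.06 SE, adjusted p = 1.8e-06). ME1, malic enzyme, a source of cytosolic NADPH, rose by 35.5% from 96.7, 98.3 and 112 CPM to 130, 140 and 146 CPM (adjusted p = 0.00095).

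FASN, the synthase that assembles palmitate, was at 877, 1094 and 1040 CPM without DHT and at 2391, 2399 and 2805 CPM with it. The lowest treated library held more than the highest untreated one, and the rise was 2.52-fold (log2 1.34 ± 0.13, adjusted p = 8.6e-06). ACACA, the cytosolic acetyl-CoA carboxylase, rose 1.80-fold, from 431, 384 and 429 CPM to 804, 749 and 689 CPM (adjusted p = 1.2e-05). ACACB, the carboxylase of the mitochondrial surface, whose malonyl-CoA restrains CPT1, was low and did not pass: it was at 23.2, 19.6 and 27.7 CPM without DHT and 17.8, 20.4 and 13.4 CPM with it (log2 -0.45 ± 0.17, adjusted p = 0.075, and 0.046 with library size in place of TMM).

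Of the 4 desaturases, 3 rose. SCD, which makes oleate from stearate, went from 935, 961 and 1082 CPM to 1852, 1893 and 2115 CPM, a 1.97-fold rise (log2 0.98 ± 0.08, adjusted p = 2.7e-06). FADS2, the delta-6 desaturase, rose 1.95-fold from 553, 621 and 639 CPM to 1149, 1111 and 1276 CPM (adjusted p = 3.6e-06). FADS1, the delta-5 desaturase, rose 1.84-fold from 158, 159 and 169 CPM to 256, 302 and 337 CPM (adjusted p = 6.6e-05). FADS3, of the same chromosome 11 cluster, did not pass and its groups overlapped, at 25.7, 23.1 and 21.7 CPM against 23.3, 15.9 and 17.9 CPM (adjusted p = 0.21). FADS1 and FADS2 overlap on opposite strands, and reads of shared bases cannot be told apart without strand.

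The elongases held the steepest responses of the module. ELOVL7, an elongase of long saturated chains, stood at 43.3, 39.9 and 33.9 CPM without DHT and at 292, 272 and 201 CPM with it. It rose 6.54-fold (log2 2.71 ± 0.18, adjusted p = 6e-07). ELOVL5, the elongase of polyunsaturated fatty acids, went from 307, 298 and 298 CPM to 1100, 1101 and 1045 CPM, 3.59-fold, with replicates close together (log2 1.85 ± 0.07, adjusted p = 1.8e-08). ELOVL2, which acts on longer polyunsaturated chains, rose 4.88-fold at a very low level, from 0.453, 0.925 and 0.783 CPM to 2.98, 3.42 and 4.15 CPM (adjusted p = 7.1e-05); its lowest library held 10 counts.

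The other elongation genes moved less or did not pass. ELOVL1, the elongase of very long saturated chains, rose 1.59-fold (adjusted p = 6.7e-05). ELOVL6, which extends palmitate to stearate, rose by 35.8% from 48.6, 48.0 and 57.9 CPM to 61.5, 62.9 and 85.4 CPM; its adjusted p of 0.042 became 0.17 without shScramble DHT+ replicate 3, the highest of these. HSD17B12 and TECR, which carry out the reduction steps of each elongation cycle, had log2 fold changes of -0.02 ± 0.11 and -0.19 ± 0.09 (adjusted p = 0.93 and 0.12). Thus the condensing enzymes rose while the shared reductases did not pass the test.

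**Figure D1:**
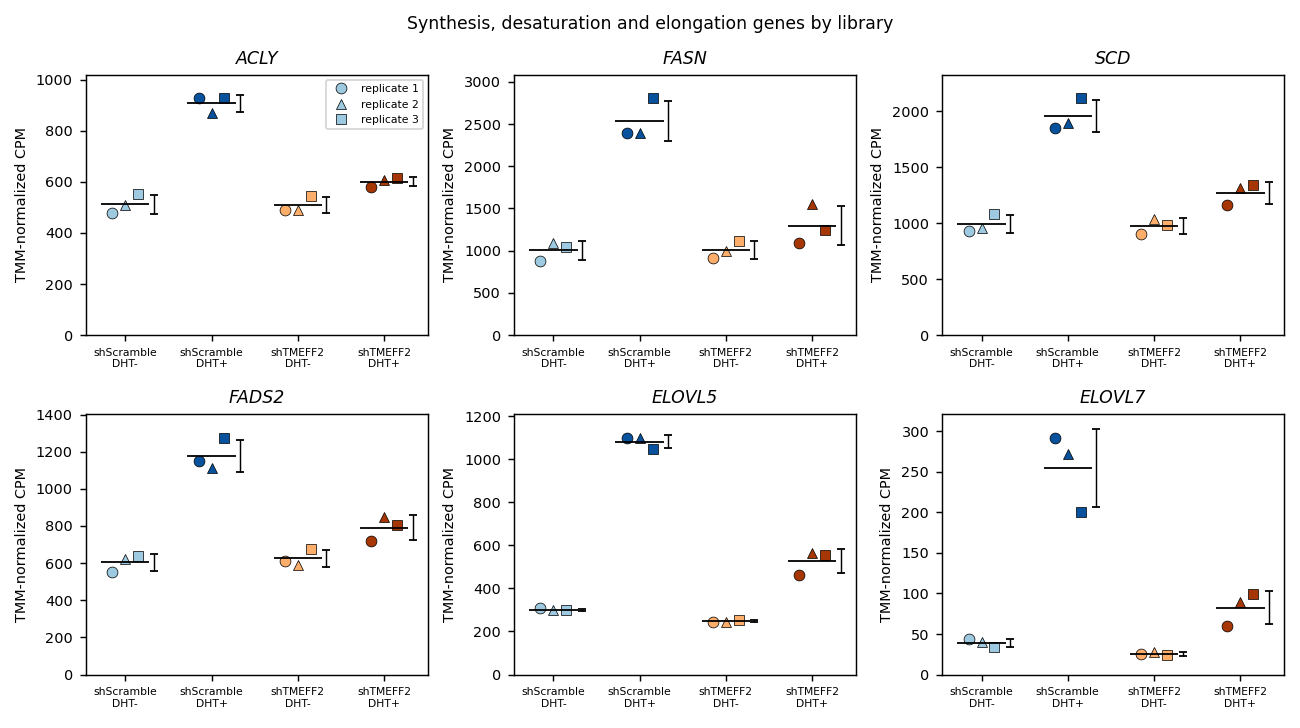
Level (TMM-normalized CPM, linear axis from 0) of 6 synthesis genes in each of the 12 libraries; symbols give the replicate number, the line the mean and the bar the SD of 3 libraries. In each gene the shScramble DHT+ libraries lie above all others, and the shTMEFF2 DHT+ libraries lie between them and the DHT- libraries, except that FASN of shTMEFF2 DHT+ replicate 1 (1097 CPM) lies among the DHT- libraries.

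The oxidation genes had no common direction with DHT in shScramble. Of the 22, 9 rose (4 by at least 1.5-fold) and 6 fell (0 by 1.5-fold), with a median log2 fold change of 0.08, beside 14.4% and 12.6% of all genes. Their summed level went from 3245 to 3403 CPM to 3761 to 3803 CPM, a much smaller step than in synthesis.

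Entry into mitochondria split by step. CPT1A, the rate-setting outer carnitine palmitoyltransferase, was at 252, 281 and 274 CPM without DHT and 261, 265 and 273 CPM with it (log2 -0.01 ± 0.08, adjusted p = 0.94), and CPT2, the inner one, was as level (log2 0.04 ± 0.06, adjusted p = 0.69). SLC25A20, the carrier that exchanges acylcarnitine for carnitine across the inner membrane, rose 1.70-fold from 23.3, 22.5 and 19.4 CPM to 40.3, 37.4 and 33.2 CPM (adjusted p = 0.00010). Only the carrier of this shuttle therefore passed the test with DHT among the 3 members.

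Genes of the mitochondrial spiral moved by small amounts in both directions. The acyl-CoA dehydrogenases ACADVL (very long chains) and ACADM (medium chains) rose by 14.9% and 30.6% (adjusted p = 0.013 and 0.00055), and ACADS (short chains) fell by 16.8% (adjusted p = 0.045). HADHA and HADHB, the 2 subunits of the trifunctional protein, fell by 13.3% and 15.1%: HADHA from 249, 229 and 235 CPM to 206, 207 and 205 CPM (adjusted p = 0.015), and HADHB from 179, 177 and 161 CPM to 147, 152 and 139 CPM (adjusted p = 0.026). The RefSeq starts of these 2 genes lie 307 bp apart on opposite strands of chromosome 2, and their 300-base windows share the 194 bases of chr2:26244689-26244882.

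HADH, the short-chain hydroxyacyl-CoA dehydrogenase, rose by 15.3% with overlapping groups (adjusted p = 0.046), and ECHS1, the short-chain hydratase, had a log2 fold change of 0.00 ± 0.07. Several of these small calls were lost in other fits: ACADS in 13 and HADH in 16 of 21, HADHB in 5, ACADVL in 3 and HADHA in 2. The highest adjusted p was 0.15 for ACADS (without shScramble DHT+ replicate 2), 0.17 for HADH and 0.084 for ACADVL (both with library size only), and 0.071 for HADHA and 0.093 for HADHB (both without shScramble DHT- replicate 1).

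Among the enzymes that prepare double bonds for oxidation, ECI2 stood apart. This enoyl-CoA isomerase, found in peroxisomes and mitochondria, went from 104, 111 and 115 CPM to 250, 238 and 243 CPM, a 2.21-fold rise (log2 1.15 ± 0.07, adjusted p = 3.1e-07). Its mitochondrial counterpart ECI1 rose by 20.2% (adjusted p = 0.016, and 0.066 without shScramble DHT- replicate 3). The dienoyl-CoA reductases differed: mitochondrial DECR1 fell by 17.4% (adjusted p = 0.041, lost in 11 of 21 other fits, up to 0.15 without shScramble DHT+ replicate 2), and peroxisomal DECR2 had a log2 fold change of 0.13 ± 0.08 (adjusted p = 0.22).

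The electron transfer genes, which pass electrons from the acyl-CoA dehydrogenases to the respiratory chain, had no riser. ETFB, the beta subunit of the flavoprotein, fell by 21.8% from 162, 168 and 139 CPM to 125, 112 and 130 CPM (adjusted p = 0.010). ETFDH, its membrane oxidoreductase, fell by 14.8% (adjusted p = 0.011, and 0.27 with the first column of each library alone). ETFA, the alpha subunit, had a log2 fold change of -0.13 ± 0.07 (adjusted p = 0.21).

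Of the 5 peroxisomal genes, 3 rose. HSD17B4, the multifunctional enzyme of peroxisomal oxidation, rose 1.60-fold from 330, 334 and 295 CPM to 534, 517 and 483 CPM (adjusted p = 4.7e-06). AMACR, the racemase of branched-chain acyl-CoAs, rose 1.58-fold from 143, 203 and 172 CPM to 260, 311 and 249 CPM (adjusted p = 0.0025), and the readthrough gene C1QTNF3-AMACR overlaps it on the same strand. ACOX3, the oxidase of branched chains, rose by 39.6% (adjusted p = 0.0080, and 0.14 with the second column alone). EHHADH, the other bifunctional enzyme, and PECR, a trans-2-enoyl-CoA reductase, did not pass (log2 0.12 ± 0.19 and -0.15 ± 0.10, adjusted p = 0.70 and 0.31).

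**Figure D2:**
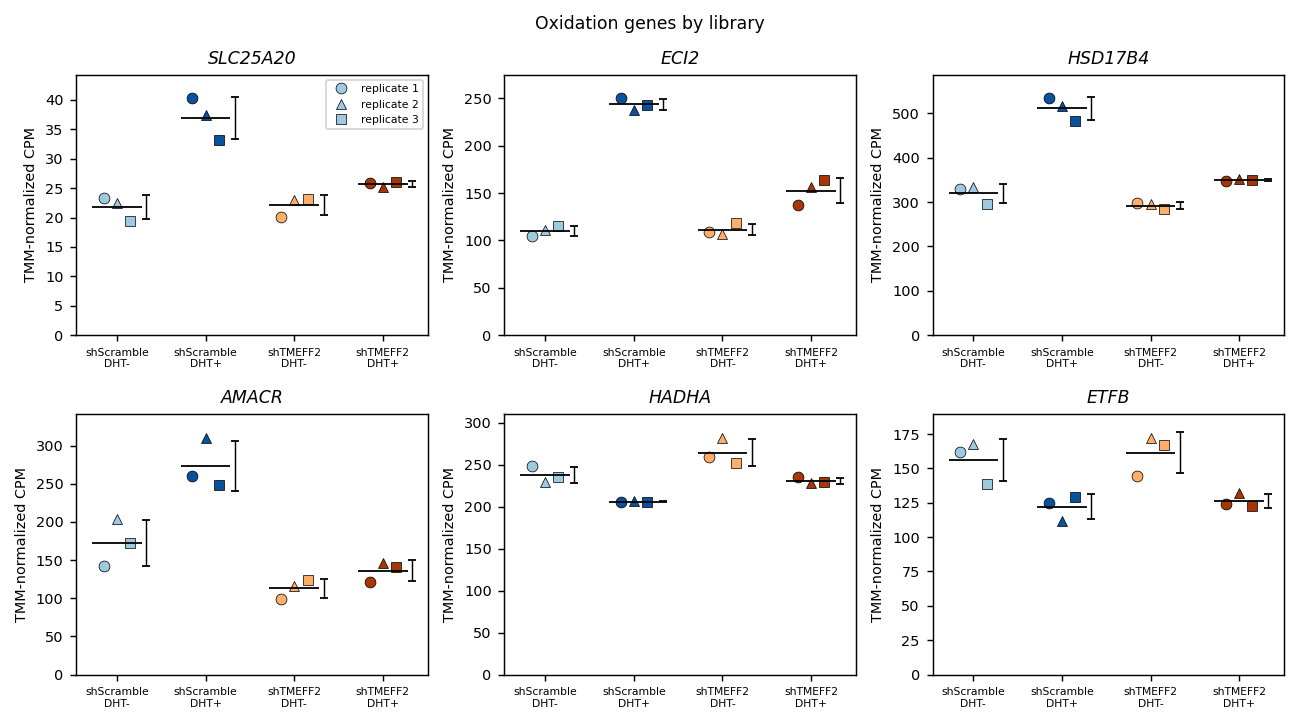
Level (TMM-normalized CPM, linear axis from 0) of 6 oxidation genes in each of the 12 libraries, drawn as for the synthesis genes with mean lines and SD bars of 3 libraries. SLC25A20, ECI2 and HSD17B4 are highest in the shScramble DHT+ libraries, AMACR is lower in shTMEFF2 than in shScramble under the same treatment, and HADHA and ETFB are lower with DHT in both lines.

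In shTMEFF2 cells DHT moved the same pathway by less. Of the 16 synthesis genes, 8 rose and 0 fell, beside 7.84% and 5.21% of all genes, and 3 rose by at least 1.5-fold (ELOVL7, ELOVL5 and FADS1). The median log2 fold change was 0.35, against -0.02 over all genes, and the summed level went from 4126 to 4622 CPM to 5191 to 6241 CPM. Of the 22 oxidation genes, 3 rose (HADH, ECI2 and HSD17B4) and 2 fell (HADHA and ETFB), with a median of -0.04. Same-numbered libraries of a line deviated together. Under the replicate block 4 oxidation genes rose and 4 fell, beside 1501 and 1146 of all 15419 genes (1209 and 804 without the block). AMACR (log2 0.27, adjusted p = 0.0487) was added to those that rose, and HADHB (-0.21, 0.017) and DECR1 (-0.27, 0.0497) to those that fell.

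ELOVL7 was at 24.9, 27.9 and 23.6 CPM without DHT and at 60.1, 88.9 and 98.9 CPM with it in shTMEFF2, a 3.24-fold rise (log2 1.70 ± 0.18, adjusted p = 0.00029). ELOVL5 rose 2.14-fold, from 246, 243 and 252 CPM to 464, 564 and 556 CPM (adjusted p = 7.1e-06). FADS1 rose 1.58-fold, from 128, 140 and 155 CPM to 195, 229 and 246 CPM (adjusted p = 0.0023). These 3 polyunsaturated and long-chain enzymes had responses in which no treated library overlapped an untreated one.

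FASN did not pass the test in shTMEFF2 without the replicate block: it was at 909, 994 and 1119 CPM without DHT and at 1097, 1550 and 1244 CPM with it, groups that overlap (log2 0.36 ± 0.12, adjusted p = 0.073). FASN was higher with DHT in each of the 3 same-numbered pairs, and it passed once the replicate block was included (log2 0.36, adjusted p = 0.020). The value was 0.022 with DESeq2 and 0.026 without shTMEFF2 DHT+ replicate 1, the lowest treated library. SCD rose by 30.3% from 902, 1040 and 984 CPM to 1158, 1314 and 1340 CPM (adjusted p = 0.0084). Smaller rises passed for ACLY (18.1%, 0.027), ACACA (27.6%, 0.017) and FADS2 (26.5%, 0.017), the value after each percentage being its adjusted p.

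ELOVL6 rose by 48.5% in this line, from 45.3, 36.7 and 52.2 CPM to 62.5, 63.0 and 73.7 CPM (adjusted p = 0.024). The calls for ACLY, ACACA, FADS2 and ELOVL6 were each lost when certain single shTMEFF2 libraries were left out, with the highest adjusted p at 0.10 for ACLY, 0.074 for FADS2 and 0.098 for ELOVL6 (all without shTMEFF2 DHT- replicate 2) and 0.064 for ACACA (without shTMEFF2 DHT- replicate 1). ELOVL2 was at 1.11, 1.37 and 0.928 CPM without DHT and 2.08, 1.96 and 1.96 CPM with it (log2 0.81 ± 0.27, adjusted p = 0.067).

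On the oxidation side ECI2 had the largest rise in shTMEFF2, 36.9%, from 109, 107 and 118 CPM to 138, 156 and 164 CPM (adjusted p = 0.0021). HSD17B4 rose by 19.9% from 297, 296 and 283 CPM to 348, 352 and 350 CPM (adjusted p = 0.013, and 0.30 with the first column of each library alone, where the log2 fold change was 0.14). HADH rose by 19.7% (adjusted p = 0.029), while HADHA fell by 12.7% (adjusted p = 0.036) and ETFB fell by 21.8% (adjusted p = 0.021). Leaving out single libraries raised these values to 0.10 for HADH (without shTMEFF2 DHT- replicate 1), 0.15 for HADHA (without shTMEFF2 DHT- replicate 2) and 0.090 for ETFB (without shTMEFF2 DHT+ replicate 3). HADHA and ETFB had nearly equal falls in both lines, with log2 fold changes of -0.21 and -0.20 for HADHA and -0.36 and -0.35 for ETFB.

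Of the 12 synthesis genes that rose in shScramble, 8 (66.7%) also rose in shTMEFF2, and of the 9 oxidation genes 3 (33.3%), beside 725 of 2217 (32.7%) over all genes. The median log2 fold change of the 12 was 0.92 in shScramble and 0.37 in shTMEFF2, and that of the 2217 was 0.48 and 0.21. Both sets were chosen by their rise in shScramble, which by itself favours a smaller median in the other line. The median was smaller in shTMEFF2 in both sets, and the part of this choice in it was not tested. The 2 lines' DHT comparisons share no library. FADS1 and ELOVL6 are the synthesis genes that rose in both lines and whose fold changes differed least, 0.88 and 0.66 on the log2 scale for FADS1 and 0.44 and 0.57 for ELOVL6.

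**Figure D3:**
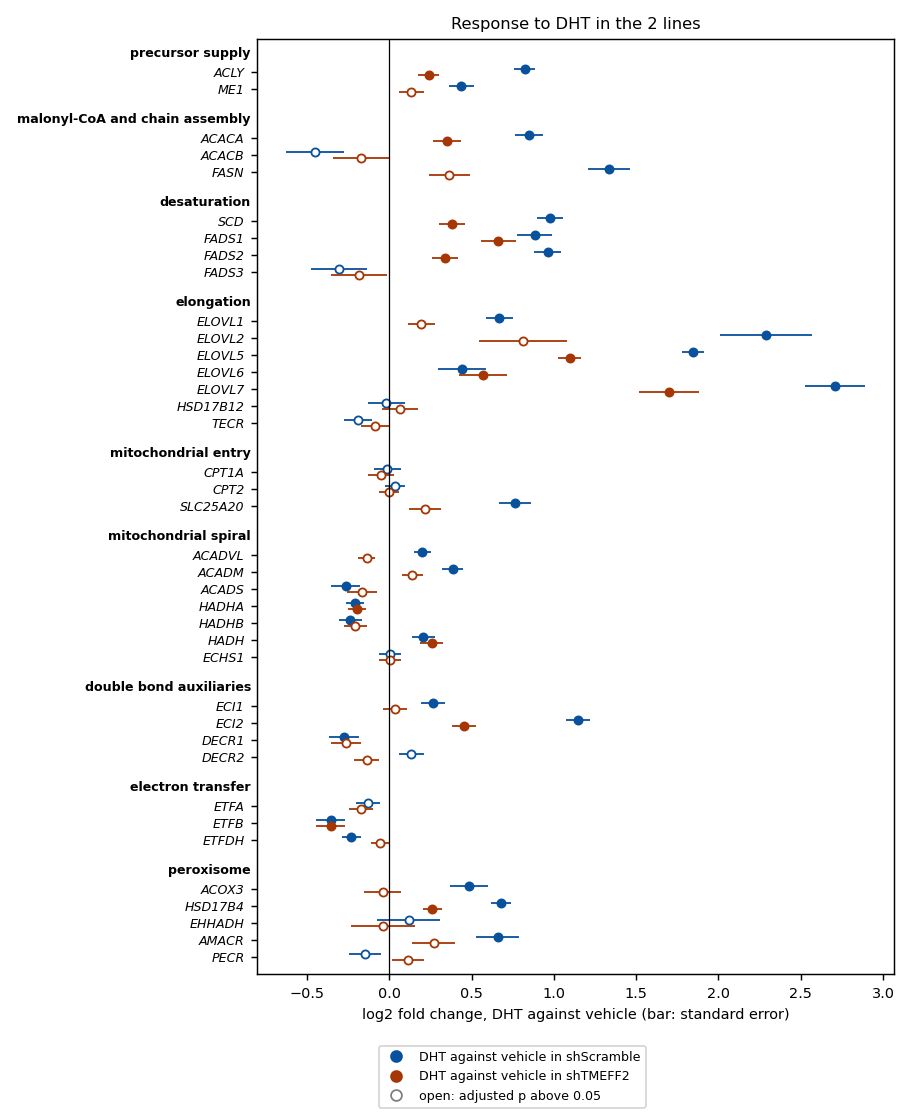
Log2 fold change of DHT against vehicle for each of the 38 members in shScramble (blue) and shTMEFF2 (brown), with standard errors as bars and open points where the adjusted p was above 0.05. The synthesis genes that passed lie to the right of 0 in both lines and mostly farther right in shScramble (FASN 1.34 against 0.36), while CPT1A, CPT2 and ECHS1 lie near 0 in both.

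Without DHT 1 of the 38 members passed the test between the lines. None of the 16 synthesis genes passed the test in edgeR and 1 of the 22 oxidation genes was lower, beside 0.623% of all genes higher and 0.493% lower. DESeq2 called 2 synthesis genes lower in shTMEFF2, where it called 291 of 13652 genes higher and 248 lower. An unadjusted p under 0.05 in edgeR was found for 4 synthesis and 7 oxidation genes. The libraries of the lines did not overlap for 5 synthesis and 7 oxidation genes. No share over all genes was counted for unadjusted p or for overlap, so these counts have no background to be read against. FASN, SCD and ACLY had log2 differences (shTMEFF2 against shScramble) of 0.01 ± 0.12, -0.03 ± 0.08 and -0.01 ± 0.06. ELOVL5 was at 246, 243 and 252 CPM in shTMEFF2 against 307, 298 and 298 CPM, and ELOVL7 at 24.9, 27.9 and 23.6 CPM against 43.3, 39.9 and 33.9 CPM. These 2 genes had no overlap and log2 differences of -0.29 ± 0.07 and -0.62 ± 0.18, with adjusted p of 0.071 and 0.14 in edgeR and of 0.0064 and 0.018 in DESeq2.

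AMACR was the member that passed: it stood at 99.0, 116 and 124 CPM in shTMEFF2 DHT- and 143, 203 and 172 CPM in shScramble DHT- (log2 -0.61 ± 0.13, adjusted p = 0.047). The call was lost in 13 of 21 other fits, with an adjusted p up to 0.18 without shScramble DHT- replicate 2, its highest untreated library.

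With DHT the lines came apart in synthesis. Of the 16 genes, 0 were higher and 10 lower in shTMEFF2, beside 6.93% and 9.09% of all genes, 7 of them by at least 1.5-fold, and the median log2 difference was -0.50 against 0.00 over all genes. Of the 22 oxidation genes, 1 was higher and 6 lower, with a median of -0.03. With library size in place of TMM the oxidation split was 6 higher and 6 lower, the added 5 being ACADS, HADHA, HADHB, HADH and ETFDH. In that setting 1616 of 15419 genes were higher and 1101 lower, where TMM gave 1068 and 1402. The median log2 difference over all genes was then 0.06. The comparison of the lines with DHT shares the shScramble DHT+ libraries with the DHT response of shScramble, so the direction of its values is not separate evidence.

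ELOVL7 had the largest difference, with 60.1, 88.9 and 98.9 CPM in shTMEFF2 against 292, 272 and 201 CPM (log2 -1.63 ± 0.18, adjusted p = 5.4e-05). ELOVL5 was at 464, 564 and 556 CPM against 1100, 1101 and 1045 CPM, a difference of -51.2% (log2 -1.04 ± 0.07, adjusted p = 1.7e-06). FASN was lower by about the same share, at 1097, 1550 and 1244 CPM against 2391, 2399 and 2805 CPM (log2 -0.97 ± 0.12, adjusted p = 0.00022). In all 3 genes every shTMEFF2 library lay below every shScramble library.

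SCD, ACACA, ACLY and FADS2 differed alike, with log2 differences of -0.62, -0.62, -0.60 and -0.58 and adjusted p of 0.00020, 0.00030, 4.8e-05 and 0.00041. FADS1 (-0.42, adjusted p = 0.018) and ELOVL1 (-0.38, adjusted p = 0.0069) were lower by less, and the FADS1 call had an adjusted p of 0.074 without shTMEFF2 DHT+ replicate 1. ELOVL2 passed narrowly at its low level (-0.81 ± 0.25, adjusted p = 0.046, up to 0.21 with the second column alone). ME1, ACACB, FADS3, ELOVL6, HSD17B12 and TECR did not pass, with log2 differences from -0.12 to 0.26.

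Among the oxidation genes with DHT, AMACR differed by -50.1% in shTMEFF2, at 121, 147 and 141 CPM against 260, 311 and 249 CPM (log2 -1.0 ± 0.13, adjusted p = 0.00024). ECI2 (log2 -0.68, adjusted p = 4.6e-05), HSD17B4 (-0.55, 5.4e-05), SLC25A20 (-0.53, 0.0029), ACADM (-0.32, 0.0039) and ACADVL (-0.30, 0.0019) were also lower, the second value of each being its adjusted p. PECR was higher at 18.3, 17.1 and 21.0 CPM against 13.8, 14.5 and 15.9 CPM (log2 0.35 ± 0.10, adjusted p = 0.029), a call lost in 8 of 21 other fits (up to 0.18 with the second column alone). CPT1A and CPT2, the transferases of the shuttle, had log2 differences of -0.11 ± 0.08 and -0.02 ± 0.06 (adjusted p = 0.40 and 0.89). HADHB, of the trifunctional protein, lay just outside the limit (log2 0.22 ± 0.07, adjusted p = 0.052) and passed in 9 of 21 other fits.

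**Figure D4:**
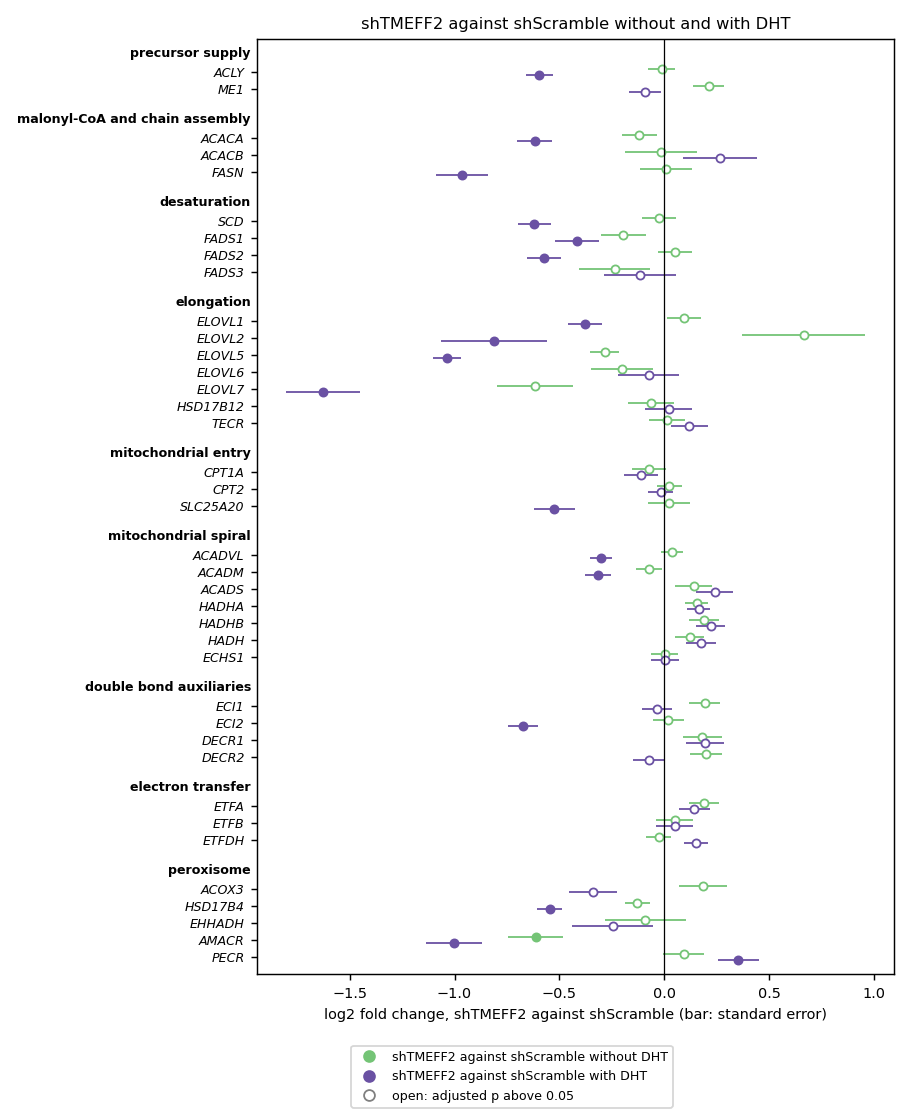
Log2 fold change of shTMEFF2 against shScramble for each of the 38 members without DHT (green) and with DHT (purple), with standard errors as bars and open points where the adjusted p was above 0.05. Without DHT only AMACR is filled, at -0.61, and with DHT 16 members are filled to the left of 0 and PECR to the right, at 0.35.

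The difference between the lines' DHT responses was tested as an interaction over all 12 libraries, as the log2 response in shTMEFF2 minus that in shScramble. It was below 0 and past the test for 9 synthesis and 4 oxidation genes and above 0 for none of either, beside 3.29% of all genes below and 1.65% above, with medians of -0.49 and -0.04 against 0.01 over all genes. FASN had an interaction of -0.97 ± 0.18 (adjusted p = 0.0073), with folds of 2.52 and 1.29 in the 2 lines. ELOVL5 had the smallest adjusted p of the members, 0.00082 (-0.75 ± 0.09), followed by ECI2 at 0.0019 (-0.69 ± 0.10) and ACLY at 0.0028 (-0.58 ± 0.09). FADS2 (-0.62), SCD (-0.59) and HSD17B4 (-0.42) passed as well, at 0.0080, 0.0093 and 0.013.

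Weaker interactions were those of ACACA (-0.50, adjusted p = 0.030), ELOVL1 (-0.47, 0.033), ELOVL7 (-1.01, 0.037), ELOVL2 (-1.47, 0.049), SLC25A20 (-0.55, 0.041) and ACADVL (-0.34, 0.021), each lost in 6 to 14 of the other fits. The highest adjusted p was 0.11 for ELOVL7, 0.12 for ACACA and 0.24 for SLC25A20 (with the first column alone), 0.10 for ELOVL1 and 0.14 for ELOVL2 (with the second), and 0.065 for ACADVL (without shScramble DHT- replicate 2). The HSD17B4 interaction rested on the first columns, with -0.28 and an adjusted p of 0.39 on the second alone. FADS1, by contrast, had an interaction of -0.22 ± 0.15 (adjusted p = 0.52), AMACR of -0.39 ± 0.19 (adjusted p = 0.30) and HADHA of 0.01 ± 0.08 (adjusted p = 0.97), and none of the 3 passed.

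Within shTMEFF2 DHT+, replicate 1 was the lowest library for FASN, SCD, ELOVL5 and ELOVL7, at 1097, 1158, 464 and 60.1 CPM. KLK3, which encodes prostate-specific antigen, was lowest there too, at 1452 CPM against 1921 and 2474 CPM, as was FKBP5, a co-chaperone of steroid receptors, at 86.1 CPM against 114 and 136 CPM. TMEFF2, which also rose with DHT in both lines (adjusted p = 0.023 and 0.038), was highest in that library, at 142 CPM against 90.1 and 114 CPM. FKBP5 rose with DHT by log2 3.38 ± 0.16 in shScramble and 0.89 ± 0.15 in shTMEFF2 (interaction -2.50, adjusted p = 8.4e-05). KLK3 rose by 1.96 ± 0.22 and 2.45 ± 0.23 on the log2 scale (interaction 0.49, adjusted p = 0.46), from a level without DHT of 1900 to 1953 CPM in shScramble and 255 to 509 CPM in shTMEFF2. FKBP5 and the 13 members thus had smaller responses in shTMEFF2 by the interaction test and KLK3 did not pass it. The part of the androgen response in the members' differences was not tested.

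**Figure D5:**
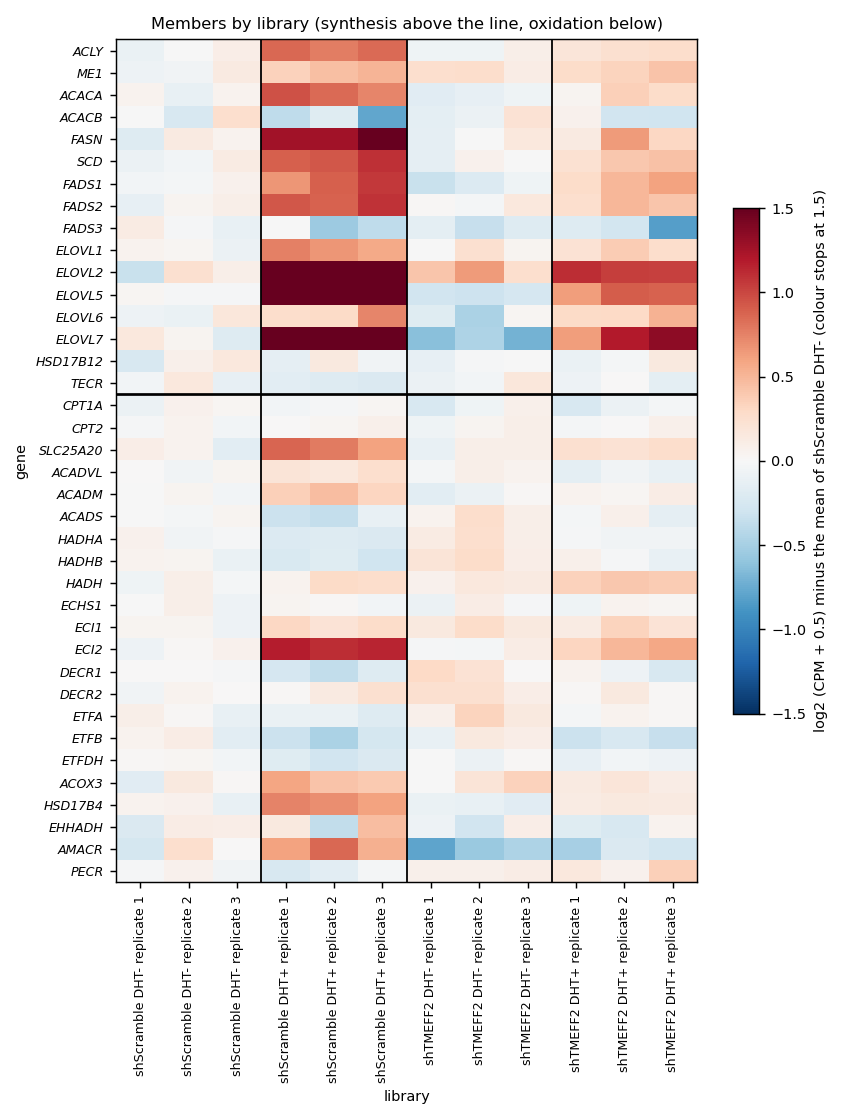
Each member (row) in each library (column) as log2 (CPM + 0.5) minus the gene's mean in shScramble DHT-, red above and blue below, with colours stopping at 1.5. Of the 16 synthesis rows above the line, the 12 that rose are red in the 3 shScramble DHT+ libraries and all but ELOVL6 and ME1 are clearly paler in shTMEFF2 DHT+, and most oxidation rows stay near white apart from ECI2, HSD17B4, SLC25A20, ACOX3 and AMACR.

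The members' patterns over the 12 libraries were compared as a description, by Pearson correlation of log2 CPM across libraries that share the same 4 groups. FASN was most like FADS2 (r = 0.985), ACLY (r = 0.978) and SCD (r = 0.973). CPT1A was most like CPT2 (r = 0.703), AMACR (r = 0.528) and HSD17B12 (r = 0.520). The median correlation was 0.691 over the 120 pairs within synthesis, 0.0942 over the 231 pairs within oxidation and 0.150 over the 352 pairs between them. The median was thus higher within synthesis, although ACACB with FASN was at r = -0.712. Oxidation pairs ran from close likeness (HADHA with HADHB, r = 0.941, and ACADM with HSD17B4, r = 0.953) to opposition. HADHA with HSD17B4 was at r = -0.872 and ACADM with DECR1 at r = -0.901. The oxidation gene ECI2 was the member most like ACLY (r = 0.986), SCD (r = 0.983) and FADS2 (r = 0.988). The low oxidation median therefore does not mean that its genes lacked shared profiles.

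Other genes of the pathways were taken from lists chosen with earlier results of these data known, so their counts are not separate evidence. Of 19 tested further synthesis genes, 11 rose and 2 fell with DHT in shScramble (14.4% and 12.6% of all genes) and 4 rose and 1 fell in shTMEFF2 (7.84% and 5.21% of all genes). IDH1, which makes cytosolic NADPH, rose 2.45-fold in shScramble and 1.29-fold in shTMEFF2 (interaction -0.93, adjusted p = 0.00016), and FADS6, a desaturase-like gene, rose from 0.103 to 0.489 CPM to 1.37 to 2.02 CPM in shScramble. CYB5A, the electron donor of the desaturases, also had an interaction past the test (-0.37, adjusted p = 0.016). In shTMEFF2 the 2 largest changes past the test were those of SCD5, a second stearoyl-CoA desaturase, with log2 -0.53, and HACD2, a dehydratase of elongation, with 0.39. With DHT, 1 of the 19 was higher in shTMEFF2 (ACSS1, mitochondrial acetyl-CoA synthetase, log2 0.82) and 6 lower (6.93% and 9.09% of all genes), FADS6 by most (-1.86).

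Of 21 tested further oxidation genes, 2 rose and 5 fell with DHT in shScramble and 1 rose and 4 fell in shTMEFF2, beside 14.4%, 12.6%, 7.84% and 5.21% of all genes in the same order. CROT, the peroxisomal carnitine octanoyltransferase, rose 2.08-fold in shScramble, and HACL1, the lyase of alpha-oxidation, fell by 52.5% (log2 -1.07) there and by 37.1% in shTMEFF2. CPT1C, the brain form of CPT1, fell in shTMEFF2 (log2 -0.68, adjusted p = 0.017). With DHT, 3 were higher and 4 lower in shTMEFF2, beside 6.93% and 9.09% of all genes, and the largest differences were those of ACOX2, an oxidase of bile acid intermediates (log2 -0.89), and ACAA1, the peroxisomal thiolase (-0.57, interaction -0.66 with adjusted p = 0.0048).

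Of 20 regulators, 4 rose and 5 fell with DHT in shScramble, beside 14.4% and 12.6% of all genes, and 2 rose and 2 fell in shTMEFF2, beside 7.84% and 5.21%. The counts of regulators that rose lie near those shares. SREBF1, which encodes the SREBP that drives fatty acid genes, did not pass at 371, 371 and 328 CPM against 438, 406 and 398 CPM with DHT (log2 0.21 ± 0.08, adjusted p = 0.072), while SREBF2, its partner for cholesterol genes, rose by 51.3% (adjusted p = 9.3e-05). SCAP, the escort of both, went from 89.0, 84.5 and 91.1 CPM to 123, 128 and 133 CPM in shScramble (log2 0.54, adjusted p = 6.5e-05) and from 87.7, 81.0 and 90.4 CPM to 85.7, 90.6 and 81.3 CPM in shTMEFF2 (log2 -0.01). Its interaction was -0.55 ± 0.09 (adjusted p = 0.0049).

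INSIG1, an ER anchor of SCAP and itself an SREBP target, rose 2.65-fold in shScramble and 1.53-fold in shTMEFF2 (adjusted p = 0.00015 and 0.049), with an interaction that did not pass (-0.79, adjusted p = 0.12). INSIG2, the other anchor, fell by 59.2% and 25.2%, with an interaction of 0.88 (adjusted p = 0.013). PPARGC1B, a coactivator of SREBP and of mitochondrial genes, rose in shTMEFF2 (log2 0.56, adjusted p = 0.014). PPARA, the nuclear receptor that drives oxidation genes, was lower in shTMEFF2 with DHT (log2 -0.76, adjusted p = 0.012).

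In the GENCODE annotation of GRCh38, 32 of the 38 members overlap another annotated gene, 19 on the same strand and 26 on the opposite one. FASN lies on chromosome 17 from 82078338 to 82098294 on the minus strand with no overlap, and ELOVL7 on chromosome 5 from 60751791 to 60844274 and SCD on chromosome 10 from 100347233 to 100364826 are likewise free of one. The strand setting of the quantification is not given in the sources used here.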

How the data were processed

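RNA-seq of 12 LNCaP libraries was analysed. The authors generated 75 bp paired-end reads, filtered contaminants, trimmed with Trimmomatic, quantified transcripts with kallisto 0.42.3 on GRCh38 and deposited estimated counts per gene symbol. The filter of the study (mean over 5 CPM) had not been applied to the table. Each library has 2 columns, which differed less (median chi-square over its expected median 2.48 to 2.77) than replicates did (4.07 to 5.04) and were summed as 1 replicate.

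Sums were rounded and fitted in edgeR 4.0.16 (R 4.3.3) with TMM (factors 0.955 to 1.04), filterByExpr (minimum count 10, leaving 15419 genes), 1 mean per group over all 12 libraries and quasi-likelihood tests, adjusted by Benjamini-Hochberg. The common biological coefficient of variation was 0.131. The call rule was an adjusted p no higher than 0.05, with changes of 1.5-fold or more, the study's limit, counted separately and not over all genes. Alternatives were DESeq2 1.42.0, other filters, library size only, limma-voom (limma 3.58.1) on unrounded counts, 6 libraries only, 1 column per library, a replicate block and each library left out, 21 fits where all apply. The code was tested on simulated data.

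All 38 members are named. Of other lists, the 2 genes with the largest change past the test per comparison are named, with SREBF1, SREBF2, SCAP, INSIG1, TMEFF2, KLK3 and FKBP5; 1 further gene is not reported here. Members and lists were chosen with earlier results of these data known. The labels give no shared origin for libraries of the same number. Deviations from the group means were correlated in each same-numbered pair of untreated and treated libraries within a line, at 0.105 to 0.149 in shScramble and 0.100 to 0.221 in shTMEFF2. The numbers were therefore taken to pair libraries in the DHT comparisons, from the data and not the labels. The main fit nonetheless had no pairing, and its counts and p-values are those given unless the replicate block is named. That block fitted a single effect per number for both lines, so no fit paired libraries within each line alone. Between the lines, same-numbered pairs ranged from 0.0047 to 0.118 and were not taken as paired. The median over all pairs of unlike number was -0.048, so a weaker likeness by number between the lines remains.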

Additional observations from a re-analysis of the deposited data

Results flagged for a closer look

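The DHT response differed between shTMEFF2 and shScramble by the interaction test for 13 members, all with a smaller or opposite response in shTMEFF2. The differences on the log2 scale were -0.58 for ACLY, -0.50 for ACACA, -0.97 for FASN, -0.59 for SCD, -0.62 for FADS2, -0.47 for ELOVL1, -1.47 for ELOVL2, -0.75 for ELOVL5 and -1.01 for ELOVL7 among the synthesis genes. Among the oxidation genes they were -0.55 for SLC25A20, -0.34 for ACADVL, -0.69 for ECI2 and -0.42 for HSD17B4. ACADVL was the one of the 13 whose fitted response changed sign, 0.20 ± 0.05 in shScramble (adjusted p = 0.013) and -0.14 ± 0.05 in shTMEFF2, where it did not pass (adjusted p = 0.11).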

How the results depend on the processing

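Of 71 calls of members over the 5 comparisons, 42 held in every alternative run and 29 were lost in at least 1, while 16 were gained in at least 1 and none reversed; of the 119 results that did not pass, 51 changed sign in some fit. With library size only, the medians with DHT in shScramble were 0.77 for synthesis and 0.0080 for oxidation. Under the same setting, 12 oxidation genes differed between the lines with DHT (median 0.031), and the interaction had medians of -0.42 for synthesis and 0.026 for oxidation, with 2 oxidation calls. The medians over all genes under that setting were -0.082, 0.062 and 0.074 in the same order of comparisons. With a mean over 5 CPM, which drops ELOVL2, the synthesis median of shTMEFF2 against shScramble with DHT was -0.39. Oxidation calls with DHT in shTMEFF2 were 1 with the first column only, and interaction calls 2 with either column alone. Where no cause is named, the cause was not tested.

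The replicate block gave 8 oxidation calls with DHT in shTMEFF2 (4 higher and 4 lower) against 5, gained 6 member calls in all and lost 0. Over all genes, calls with DHT in shTMEFF2 also grew, from 1209 to 1501 higher and from 804 to 1146 lower. The block added FASN, HADHB, DECR1 and AMACR with DHT in shTMEFF2, where the numbers were taken to pair the libraries. It also added HADHB and HADH between the lines with DHT, where the numbers were not taken to pair them. In all, 8 of 12 libraries were closest to those of their own number in every other group, those of the other line included.

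With each library left out, synthesis calls with DHT in shTMEFF2 were 4 to 9 (4 without DHT- replicate 1, DHT- replicate 2 or DHT+ replicate 3 of that line, 5 without DHT+ replicate 2), with medians of 0.27 to 0.42. Oxidation calls there were 2 to 5 (2 without DHT- replicate 2 or DHT+ replicate 3, 3 without DHT- replicate 1 or DHT+ replicate 2), with medians of -0.043 to 0.029. Calls over all genes fell in the same fits, from 1209 higher and 804 lower in the main fit. They were 743 and 451 without DHT- replicate 1, and 708 and 378 without DHT- replicate 2. Without DHT+ replicate 2 they were 910 and 438, and without DHT+ replicate 3 they were 636 and 241. In shScramble the oxidation median with DHT was 0.022 to 0.11 (0.022 without DHT- replicate 1 or DHT+ replicate 3). Without DHT, calls between the lines were 0 to 1 in synthesis (1 without shTMEFF2 DHT+ replicate 1) and 0 to 1 in oxidation (AMACR, lost without 9 of the 12). Over all genes those fits gave 22 to 122 higher and 23 to 77 lower, against 96 and 76 in the main fit. Interaction calls were 5 to 8 in synthesis and 2 to 4 in oxidation, whose medians were -0.11 to -0.021. Over all genes the interaction calls of these fits were 127 to 294 above 0 and 329 to 471 below, against 254 and 507 in the main fit. Synthesis interactions numbered 5 without shScramble DHT- replicate 3, DHT+ replicate 1 or DHT+ replicate 2, or shTMEFF2 DHT- replicate 2 or DHT+ replicate 1. Oxidation interactions numbered 2 without shScramble DHT- replicate 2, or shTMEFF2 DHT- replicate 2, DHT+ replicate 1 or DHT+ replicate 3.

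ELOVL2 and FADS6 rest on few counts.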
